A study of Bos taurus with 39 samples.

Results

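The miR-17-92 and miR-106b-25 clusters were followed in miRNA libraries of bovine oocytes. The 9 members were taken by name from the known miRNAs: bta-miR-17-5p, bta-miR-18a, bta-miR-19a, bta-miR-20a, bta-miR-19b and bta-miR-92a for miR-17-92, and bta-miR-106b, bta-miR-93 and bta-miR-25 for miR-106b-25 (the species prefix is left out below). They are 9 of 1030 known miRNAs listed, and of 1995 when predicted miRNAs are included. There were 39 libraries in 13 conditions, with n = 3 per condition and each library made from a pool of oocytes whose cumulus cells had been stripped off. In the control group the oocytes matured inside cumulus-oocyte complexes (COCs), the follicular units in which cumulus cells touch the oocyte through gap junctions. In the CBX group intact COCs were treated with carbenoxolone, which blocks gap junctions. In the cocult group denuded oocytes matured next to COCs in the same medium but without contact. Denuded oocytes of the DO group were kept by themselves. Libraries were collected at 1, 6 and 22 h of maturation, and control oocytes also at 0 h. The study's methods do not describe the 0 h oocytes. All oocytes came from ovaries pooled in batches, which limits n to the number of pools, and carbenoxolone is known to have targets other than gap junctions.

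A miRNA cluster is a set of miRNA hairpins transcribed as one precursor and cut apart afterwards, and each mature miRNA then guides silencing through its seed, the stretch near the 5′ end that pairs with messenger RNA. The miR-17-92 cluster is known as an oncogenic cluster that MYC and E2F factors switch on, and it promotes cell survival and proliferation in many tissues, including granulosa cells. The miR-106b-25 cluster is its paralogue. Both hold members of the miR-17 seed family (miR-17-5p, miR-20a, miR-106b and miR-93), which silences cell cycle inhibitors such as CDKN1A, and of the miR-92 seed family (miR-92a and miR-25). miR-19a and miR-19b make up the miR-19 family, and miR-18a forms a seed family of its own here.

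Mature sequences are shown for miR-92a and miR-93, the most abundant member of each cluster. The study used both as reference miRNAs for RT-qPCR of cumulus cells, chosen on cumulus samples and not on oocytes. The sequences were copied from its primer list, are 22 bases long and run 5′ to 3′, with the seed (bases 2 to 8) in capitals.
miR-92a: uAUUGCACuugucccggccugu
miR-93: cAAAGUGCuguucgugcaggua
The seeds differ, so these leading members of the 2 clusters belong to different seed families. The miR-17 family held 40.5% of all member counts, the miR-92 family 53.3%, the miR-19 family 5.33% and miR-18a 0.874%.

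In the RefSeq annotation of the ARS-UCD2.0 assembly, chromosome 12 carries MIR17, MIR18A, MIR19A, MIR20A, MIR19B and MIR92A-1 in this order, with 0 other genes between them. MIR106B, MIR93 and MIR25 follow each other on chromosome 25 inside MCM7, a protein-coding gene for a subunit of the replicative helicase. The cluster on chromosome X holds further hairpins of miR-92a (MIR92A-2) and miR-19b (MIR19B-2), together with MIR363, MIR20B, MIR18B and MIR106A. Counts of mature miR-92a and miR-19b can therefore come from chromosome 12 or X and cannot be assigned to 1 locus. The reads had been placed on another assembly, so no coordinates are given.

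Total miRNA counts per library ranged from 11985 to 175429 (median 70069), and a floor of 3 counts corresponded to 17.1 to 250.3 CPM (counts relative to the library total after TMM scaling). Floors and intervals on counts cover counting error only. Pairs of replicates all exceeded sampling noise, with 3.86 to 17.1 for the chi-square per degree of freedom, so no library was counted as a copy of another. Of the fixed lists of other tissues, blood cell miRNAs (7 listed, 6 detected, miR-142-3p at 0) summed to 108 to 3247 CPM, muscle miRNAs (4 listed, 3 detected, miR-133b at 0, with miR-206 holding most counts) to 0 to 12900 CPM, and miRNAs linked to granulosa and cumulus cells (5 listed, 4 detected, miR-212 at 0) to 2768 to 11100 CPM. In the last list miR-21-5p held most counts, with 14720 over the 39 libraries against 1926 for miR-202, the next highest.

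Of the 9 members, 8 were readily detected and 1 was not. The most abundant was miR-92a with 29604 counts over the 39 libraries, rank 13 among known miRNAs, followed by miR-93 with 19842 (rank 15), miR-25 with 9084 (rank 23) and miR-20a with 8475 (rank 24). Lower counts were found for miR-19b (3036), miR-17-5p (1008), miR-19a (829) and miR-18a (634). The name-giving miR-106b had 39 counts in all, at most 5 in a library and 0 in 21 of the 39. There 0 counts allow levels up to about the floor given above. It passed no low-count filter and was not tested. Together the 9 members made up 5.67% of the counts on known miRNAs, with 4.93% to 6.82% in the single libraries.

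On the CPM scale, mean levels over the 39 libraries were 10300 ± 2342 (SD) for miR-92a, 6680 ± 1442 for miR-93, 3152 ± 786 for miR-25, 2796 ± 838 for miR-20a and 960 ± 296 for miR-19b. The minor members were at 348 ± 162 (miR-17-5p), 252 ± 119 (miR-19a) and 207 ± 94.7 (miR-18a). Mature miRNAs have nearly the same length, so these levels were compared without a length correction. Members of one cluster thus differed widely in counts: miR-20a exceeded miR-17-5p by a median of 8.08 times within a library, with 4.06 to 28.0 times over the 39 libraries. The 28.0 is from replicate 1 of control at 6 h, which has 1 count of miR-17-5p, and without it the highest ratio was 16.9. A median of 69.3% of the miR-17-92 counts belonged to miR-92a (range 53.4% to 91.0%), and a median of 68.4% of the miR-106b-25 counts to miR-93 (range 53.9% to 76.1%).

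Of 6 relatives (miR-106a, miR-18b, miR-20b and miR-363 from chromosome X, the other arm of MIR17, and miR-92b), 6 were detected, but at low levels. The most abundant was miR-20b, the counterpart of miR-20a, with 480 counts and a mean of 162 CPM. It was followed by miR-92b with 240 counts (90.7 CPM), and these 2 passed the filter in the 36 libraries at 1, 6 and 22 h. The passenger arm miR-17-3p had 92 counts, miR-18b 85, miR-106a 84 and miR-363 50. None of miR-20b, miR-18b and miR-106a reached the level of its counterpart miR-20a, miR-18a or miR-17-5p when averaged over the libraries.

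Summed over its members, the mean level of the miR-17-92 cluster was lowest in the cocult group at 1 h, with 13450 ± 2186 CPM (SD, n = 3), and highest in the CBX group at 22 h, with 16500 ± 2860, a ratio of 1.23. The place of the CBX group as highest rests on replicate 2, at 18490 CPM against 17790 and 13230 in the other libraries. That replicate has 18796 counts in all. At 0 h the control oocytes held 16110 ± 2754 CPM. The control group then had 15260 ± 2101 at 1 h, 15580 ± 3695 at 6 h and 14310 ± 562 at 22 h. The corresponding sums in the CBX group were 16110 ± 2281, 14800 ± 693 and 16500 ± 2860. In the cocult group they were 13450 ± 2186, 14920 ± 2593 and 13540 ± 660, and in the DO group 13580 ± 2196, 13780 ± 1543 and 15230 ± 842. With the 13 means sorted by size, 0 of the 12 neighbouring pairs lay further apart than the larger of their SDs, which says nothing about conditions farther apart in that order. In pooled material of this kind, a lower share of one miRNA and a higher share of others cannot be told apart.

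**Figure D1:**
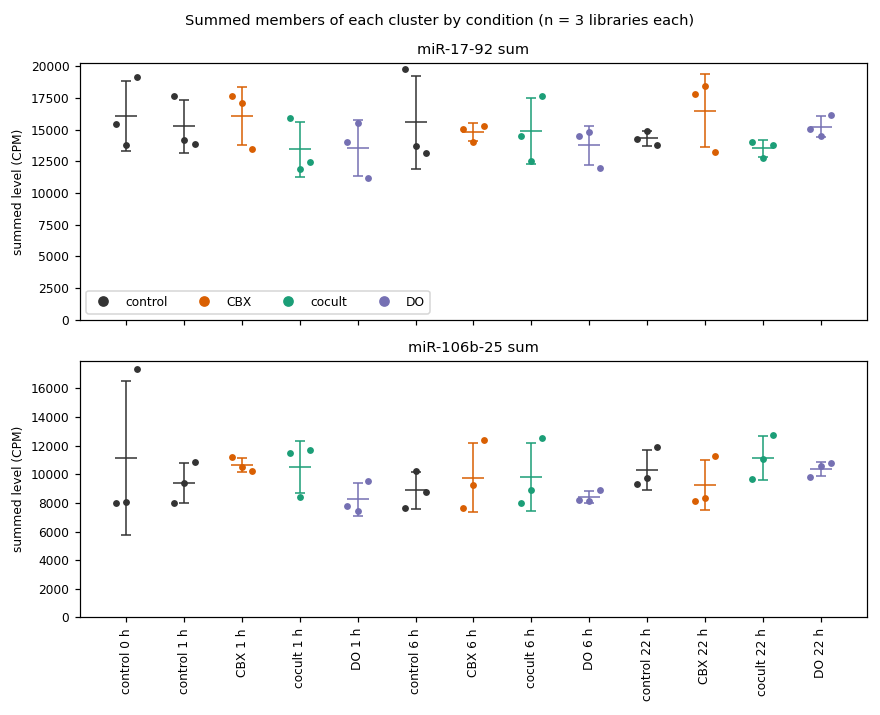
Summed level in CPM of the members of miR-17-92 (top) and miR-106b-25 (bottom) in each of the 13 conditions, with points for the 3 libraries and bars for the mean ± SD. The condition means of miR-17-92 lie between 13450 and 16500 CPM and those of miR-106b-25 between 8239 and 11170 CPM, and the control library at 0 h with 17350 CPM lies above all others in the bottom panel.

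The miR-106b-25 sum, which is in practice miR-93 plus miR-25, ranged from 8239 ± 1121 CPM (SD, n = 3) in the DO group at 1 h to 11170 ± 1538 in the cocult group at 22 h, a ratio of 1.36. The control group was at 11120 ± 5396 at 0 h, 9406 ± 1405 at 1 h, 8877 ± 1283 at 6 h and 10320 ± 1395 at 22 h. The wide SD at 0 h came from 1 library: the sums were 7974, 8030 and 17350 CPM in replicates 1 to 3. In that library miR-93 was at 10230 CPM and miR-25 at 7116, against 4785 and 4903 for miR-93 and 3190 and 3128 for miR-25 in the other two. In the CBX group the sum was 10650 ± 509 at 1 h, 9771 ± 2396 at 6 h and 9274 ± 1745 at 22 h. In the cocult group it was 10510 ± 1849, 9822 ± 2378 and 11170 ± 1538, and in the DO group 8239 ± 1121, 8419 ± 422 and 10370 ± 495. Sorted by size, 0 of 12 neighbouring means were apart by more than the larger SD, which says nothing about conditions farther apart in the order. In a pair picked after the values were seen, the DO libraries at 6 h (8227, 8127 and 8903 CPM) lay below those at 22 h (9816, 10550 and 10760 CPM) without overlap. The sums were not tested, and how many other pairs of conditions lie without overlap was not counted.

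Taken one by one, the 4 abundant members spanned less than a 2-fold range of condition means. The lowest and highest means of miR-92a were 8620 ± 2057 CPM in the cocult group at 1 h and 13220 ± 3702 in the CBX group at 22 h, a ratio of 1.53. That highest place rests on replicate 2 of CBX, at 16750 CPM against 13540 and 9368 in the other libraries. For miR-93 the lowest and highest means were 5553 ± 969 in the DO group at 1 h and 7913 ± 1175 in the cocult group at 22 h, a ratio of 1.43. For miR-25 the lowest mean was 2401 ± 248 in the DO group at 6 h, and the highest was 4478 ± 2285 in the control group at 0 h, where the library with 7116 CPM enters. For miR-20a the lowest and highest means were 2088 ± 800 in the CBX group at 22 h and 3775 ± 1702 in the control group at 0 h. Replicate 2 of CBX at 22 h was at 1197 CPM. The other libraries of that condition, at 2743 and 2324, lay above the DO mean at 22 h (2267). The minor members spanned wider ratios, 2.06 for miR-19b, 2.40 for miR-17-5p, 2.94 for miR-18a and 3.11 for miR-19a, with the CBX group at 22 h lowest in the last 3. That place rests on replicate 2, with 18796 counts in all. Without it the CBX means were 256 CPM for miR-17-5p, 151 for miR-18a and 185 for miR-19a, above the lowest other conditions (252 in DO at 1 h, and 143 and 168 in control at 6 h). For each of the 9 members, neighbours in the sorted order of means differed by no more than the larger SD (0 of 12 pairs).

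**Figure D2:**
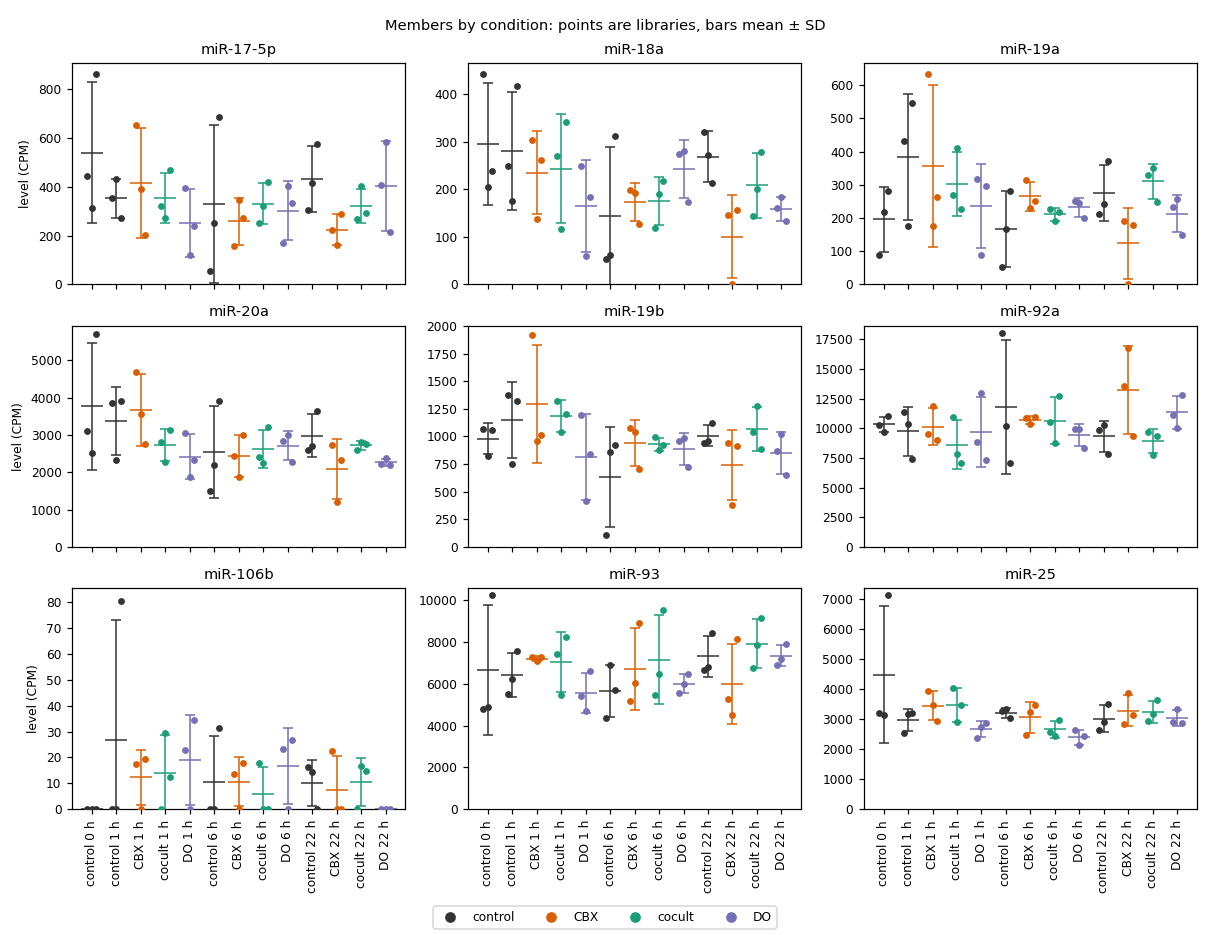
Level in CPM of each of the 9 members in the 13 conditions, with points for the 3 libraries and bars for the mean ± SD, each panel on its own linear axis from 0. Levels of miR-92a reach 18060 CPM while miR-106b does not exceed 80.3, and single libraries (control at 6 h, CBX at 22 h) lie apart from their replicates for several members at once.

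Differences between groups were then tested with edgeR's quasi-likelihood test, blocked by replicate number and adjusted by the Benjamini-Hochberg method over all miRNAs tested. Called miRNAs had an adjusted p-value under 0.05 together with a change of 1 log2 unit or more. In the 18 comparisons between groups at one time, 0 of 143 tests of members were called. Over all miRNAs in these comparisons 0.266% of the tests were called (21 of 7883), so a list of this size with no calls is near the background. The share called reached 2.35% in CBX against DO at 6 h and 1.46% at 1 h, 0.473% in cocult against DO at 6 h, 0.216% in control against cocult and 0.232% in CBX against DO at 22 h, and 0% in the other 13. At an unadjusted p-value under 0.05 there were 3 member tests of 143, against 5.24% of the tests over all miRNAs, and DESeq2 gave 0 calls and 0 such member tests.

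Of the 3 member tests with an unadjusted p-value under 0.05, 2 came from control against CBX at 22 h. In this comparison miR-92a was at 9878, 10300 and 7849 CPM in the control libraries and at 13540, 16750 and 9368 CPM in the CBX libraries. It was higher in CBX in 3 of 3 replicate pairs, although the groups overlap. The log2 fold change was 0.48 (standard error 0.17, 95% interval 0.085 to 0.885), with an adjusted p = 0.422 by edgeR. In the same libraries miR-17-5p went the other way, with 304, 415 and 575 CPM in control and 225, 163 and 288 in CBX. The groups did not overlap, and the log2 difference was -0.82 with a standard error of 0.33 (adjusted p = 0.469 by edgeR). Named after their values were seen, miR-18a (-1.08), miR-19a (-0.87) and miR-19b (-0.42) were also lower in 3 of 3 pairs without overlap. Their adjusted p-values by edgeR were 0.517, 0.612 and 0.713. For miR-19b the lowest control library was at 945.0 CPM and the highest CBX library at 944.2. Replicate 2 of CBX had 0 counts of miR-18a and miR-19a. How many of all miRNAs lay without overlap was not counted, so the lack of overlap is description only. The estimate was -0.53 for miR-20a, -0.30 for miR-93 and 0.13 for miR-25, each with overlap. Here 0% of the 474 miRNAs tested were called, while 10.5% lay under 0.05 before adjustment. With library sizes from deduplicated reads the estimate of miR-92a turned to -0.18 (adjusted p = 0.77 by edgeR), a scaling under which the median estimate over all miRNAs moved by -0.628, and without the 3 libraries set apart below it was 0.34 (adjusted p = 0.345 by edgeR). The estimate of miR-17-5p was -1.41 and -0.76 in these settings. The CBX library with 163 CPM is replicate 2, which rests on 3 counts of miR-17-5p and has the second lowest total of the series (18796). The sum of the list linked to granulosa and cumulus cells moved along with this comparison. It was at 8477 to 11100 CPM in the control libraries and 4514 to 5343 in the CBX libraries. Over the 39 libraries this sum was mostly miR-21-5p, with a mean of 4624 CPM against 648 for miR-202, the next highest. The paper reports the leading miRNA of this list as downregulated in the CBX group in this comparison. The listed miRNAs were not compared singly, so the shift cannot be read as one of the whole list. Its part in the result was not tested.

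The remaining one was miR-18a in control against DO at 22 h. It was at 321, 272 and 213 CPM in control and 160, 183 and 133.4 in DO, without overlap. The estimate was -0.78 on the log2 scale with a standard error of 0.30 (adjusted p = 0.627 by edgeR), on 8 to 11 counts per DO library. In this comparison 0% of all miRNAs were called, and 7.64% lay under 0.05 before adjustment. The paper reports called miRNAs here, all of them predicted ones and no cluster member. The sum of the granulosa and cumulus list, mostly miR-21-5p as said above, was at 5504 to 7675 CPM in these DO libraries. That is below the control libraries given above, and its part was not tested. The miR-17 family member miR-20a, named after its values were seen, also did not overlap here. It was at 2597, 2706 and 3642 CPM in control and 2236, 2381 and 2185 in DO. The estimate was -0.40 (0.19; adjusted p = 0.78 by edgeR). How many of all miRNAs lay without overlap was not counted here either.

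Averaging each group over 1, 6 and 22 h in one fit of 36 libraries narrowed the errors. None of the 48 member tests was called in the 6 group contrasts, where 0.139% of all tests were called (5 of 3600), with 0.5% in CBX against cocult, 0.333% in CBX against DO and 0% in the other 4. DESeq2 also gave 0 calls, and an unadjusted p-value under 0.05 was seen in 3 member tests with either tool, and in 5.97% of all tests with edgeR. The estimates lay between -0.46 and 0.25 on the log2 scale, and 46 of the 48 intervals lay inside a change of 1 log2 unit in either direction. The intervals bound a group difference averaged over 1, 6 and 22 h, most tightly for the abundant members. They do not bound a difference at a single time. In control against CBX at 22 h, for example, the interval reached -1.213 log2 units for miR-20a and 0.885 for miR-92a. The farthest bound over the 6 averaged contrasts was 1.37-fold for miR-25, 1.38-fold for miR-93, 1.41-fold for miR-92a and 1.52-fold for miR-20a. It was 1.73-fold for miR-19b, 1.81-fold for miR-19a, 2.03-fold for miR-17-5p and 2.06-fold for miR-18a.

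For control against CBX, the contrast that addresses the gap junctions, the estimates were 0.11 (standard error 0.14) for miR-92a, -0.19 (0.16) for miR-20a, 0.02 (0.23) for miR-19b, -0.22 (0.28) for miR-19a, -0.46 (0.29) for miR-18a and -0.43 (0.29) for miR-17-5p. In the other cluster miR-93 was at -0.01 (0.10; log2 interval -0.229 to 0.2) and miR-25 at 0.04 (0.10). The median over the 8 members was -0.10. Control against cocult, in which contact is lost but the medium is shared, gave estimates from -0.22 for miR-17-5p to 0.19 for miR-93, with -0.21 for miR-18a, -0.13 for miR-20a, -0.09 for miR-92a, 0.17 for miR-19b and values within 0.03 of 0 for miR-19a and miR-25.

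Against DO, in which the cumulus cells are absent altogether, 8 of 8 members had negative estimates relative to control, and 0 of them were called, as were 0% of the 600 miRNAs tested. They ran from -0.30 (standard error 0.28) for miR-18a and -0.30 (0.29) for miR-17-5p through -0.28 (0.28) for miR-19a, -0.27 (0.16) for miR-20a, -0.20 (0.11) for miR-25, -0.16 (0.23) for miR-19b and -0.06 (0.11) for miR-93 to -0.01 (0.14) for miR-92a. Members share libraries and are not independent, so the shared sign is no evidence of its own. The smallest adjusted p in this contrast was 0.72 for miR-25.

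Both of the well-measured members of miR-106b-25 had their lowest unadjusted p-values against DO. Relative to cocult, the estimate in DO was -0.25 (standard error 0.10) for miR-93 and -0.23 (0.11) for miR-25, each lower in 7 of 9 replicate pairs, with an adjusted p of 0.997 by edgeR. Relative to CBX, miR-25 was at -0.24 (0.11), lower in 7 of 9 pairs, with an adjusted p of 0.941. The other estimates of CBX against DO lay between -0.18 for miR-19b and 0.16 for miR-18a, those of cocult against DO between -0.33 for miR-19b and 0.08 for miR-92a, and those of CBX against cocult between -0.21 for miR-92a and 0.25 for miR-18a.

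**Figure D3:**
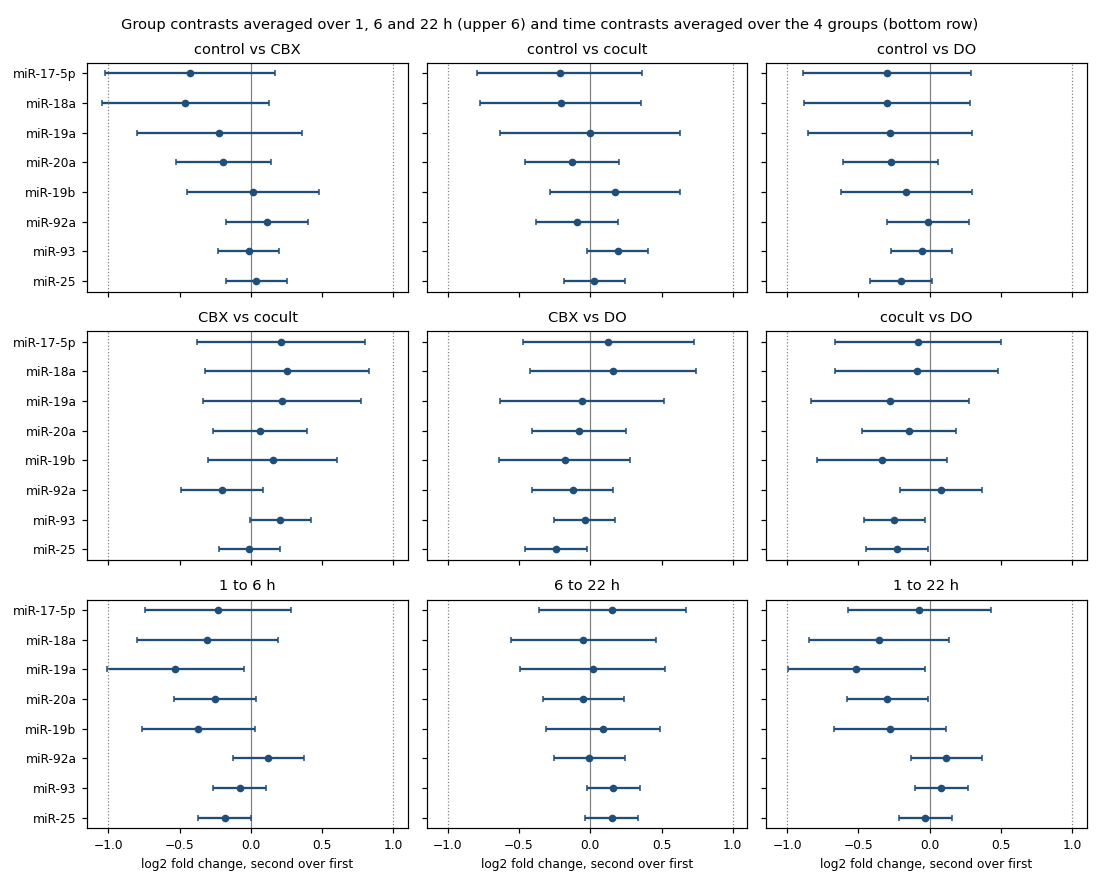
Log2 fold change (second group over first, or later over earlier time) with its 95% interval for the 8 members tested, in the 6 group contrasts averaged over times and the 3 time contrasts averaged over groups, with dotted lines at a change of 1 log2 unit. Intervals are narrowest for miR-93 and miR-25 and widest for miR-17-5p, miR-18a and miR-19a, and 46 of 48 group intervals stay inside the dotted lines.

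Across maturation time, 0 of 120 member tests were called in the 15 comparisons within a group, including control from 0 h, against a background of 0.17% (11 of 6485). These calls were in DO from 1 to 22 h (1.81%), control from 1 to 22 h (0.44%) and CBX from 6 to 22 h (0.227%). In the fit of 36 libraries, 0 of 24 were called in the 3 time contrasts averaged over the groups, where 0.556% of all tests passed (10 of 1800). DESeq2 called 0 members in both. At an unadjusted p-value under 0.05, edgeR gave 3 and DESeq2 2 tests within groups, and edgeR 3 and DESeq2 6 in the averaged contrasts. Over all miRNAs edgeR gave 6.65% within groups and 16.6% in the averaged contrasts (26.8% from 1 to 22 h and 13.5% from 1 to 6 h).

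From 1 to 22 h, with 1.5% of all miRNAs called, the 5 less abundant members of miR-17-92 had negative averaged estimates: -0.51 (standard error 0.23) for miR-19a, -0.36 (0.24) for miR-18a, -0.30 (0.14) for miR-20a, -0.28 (0.19) for miR-19b and -0.07 (0.24) for miR-17-5p. The abundant miR-92a was at 0.12 (0.12). Of these, miR-19a was lower in 8 of 12 replicate pairs (adjusted p = 0.165 by edgeR) and miR-20a in 9 of 12 (adjusted p = 0.172). From 1 to 6 h, with 0.167% called, miR-19a was at -0.53 (0.23), lower in 10 of 12 pairs, with an adjusted p of 0.312. For the other cluster the averaged estimates from 1 to 22 h were 0.08 (0.09) for miR-93 and -0.03 (0.09) for miR-25. From 6 to 22 h, estimates of the 8 members lay between -0.05 and 0.16.

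Within single groups, the 3 member tests over time with an unadjusted p-value under 0.05 were in CBX from 1 to 22 h, where 0% of 488 miRNAs were called and 12.3% lay under 0.05 before adjustment. There miR-19a was at 635, 176 and 262 CPM at 1 h and 191, 0 and 180 at 22 h, an estimate of -1.40 on the log2 scale (standard error 0.51). For miR-18a the levels were 305, 137 and 262 CPM and then 146, 0 and 156, with -1.13 (0.46). The miR-20a levels of 4698, 3573 and 2770 CPM were followed by 2743, 1197 and 2324, with -0.86 (0.32). All 3 were lower in 3 of 3 pairs with an adjusted p of 0.388 by edgeR, and the groups did not overlap for miR-20a. How many of all miRNAs lay without overlap was not counted. Replicate 2 at 22 h, the library with 18796 counts, had 0 counts of miR-18a and miR-19a, which allows up to 163 CPM, the level of 3 counts there. Without the 3 libraries set apart in the next paragraphs, a choice made after seeing the data, the estimates were -1.21 for miR-19a, -0.93 for miR-18a and -0.54 for miR-20a. When library sizes were taken from all deduplicated reads instead, miR-19a and miR-20a were called, at -1.97 (adjusted p = 0.0347 by edgeR) and -1.57 (adjusted p = 0.0392). That scaling shifted the median of all miRNAs in this comparison by -0.675 on the log2 scale, so relative to the median the 2 estimates stayed close to those under TMM.

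Further single comparisons are given here after their values were seen, and 0 of these tests was called or had an unadjusted p-value under 0.05. In control from 1 to 6 h miR-19a was at -0.999 (standard error 0.53), miR-18a at -0.98 (0.52) and miR-19b at -0.93 (0.65), each with an adjusted p of 0.93 by edgeR, and the groups overlapped. In CBX from 6 to 22 h miR-19a was at -0.91 (0.52; adjusted p = 0.995 by edgeR), without overlap. In DO from 6 to 22 h miR-93, miR-25 and miR-92a were higher in 3 of 3 pairs without overlap, and 11.6% of all miRNAs lay under 0.05 before adjustment. In the same comparison miR-18a and miR-20a were lower in 3 of 3 pairs, with overlap. The share of all miRNAs without overlap was not counted in any of these comparisons, so the lack of overlap is description only. There miR-93 was at 5568, 5985 and 6451 CPM and then 6897, 7199 and 7889, an estimate of 0.27 (0.14; adjusted p = 0.566 by edgeR). The levels of miR-25 were 2635, 2141 and 2426 CPM and then 2919, 3352 and 2869, an estimate of 0.32 (0.18; adjusted p = 0.613). For miR-92a the estimate was 0.25 (0.17; adjusted p = 0.647). From 1 to 22 h in DO, miR-93 was at 0.31 (0.22; adjusted p = 0.699), also higher in 3 of 3 pairs without overlap.

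From 0 h to 1, 6 and 22 h of control maturation, 0 members had an unadjusted p-value under 0.05. Among the 4 abundant members, the estimates farthest from 0 were -0.51 (standard error 0.32) for miR-25 from 0 to 1 h and -0.51 (0.35) for miR-20a from 0 to 6 h. The course from 1 to 22 h did not differ detectably between the control group and the other groups: in the 3 interactions 0 of 24 member tests were called by edgeR, 0 by DESeq2, and 0% of all 1800 tests. At an unadjusted p-value under 0.05 there were 0 member tests with either tool, against 3.89% of all tests with edgeR. These intervals were wide, for example -1.43 to 0.19 for miR-20a and -0.26 to 1.14 for miR-92a in the CBX group.

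Within a library, miR-92a and the other members of its cluster did not keep a fixed proportion. The ratio of miR-92a to miR-20a counts, which needs no scaling, had a median of 3.73 over the 39 libraries and ran from 1.82 to 14.0. It was highest in replicate 2 of CBX at 22 h, with 308 against 22 counts (14.0, exact binomial 95% interval 9.08 to 22.7). Next came replicate 1 of control at 6 h with 335 against 28 counts (11.96, 8.13 to 18.3), and then replicate 2 of DO at 1 h, at 6.91. The lowest was replicate 3 of control at 6 h, a replicate of the second highest library, at 1.82. By total counts (18796, 20180 and 32676) the 3 highest have ranks 2, 3 and 4 from the smallest. The smallest library, replicate 1 of control at 0 h with 11985 counts, had a ratio of 3.31. Over the 36 libraries at 1, 6 and 22 h, the log2 ratio and the log2 total had a Pearson correlation of -0.54 and a Spearman correlation of -0.27, given as a description. Its part in the group results was not tested beyond leaving the 3 libraries out, after which 0 members were called in any comparison.

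**Figure D4:**
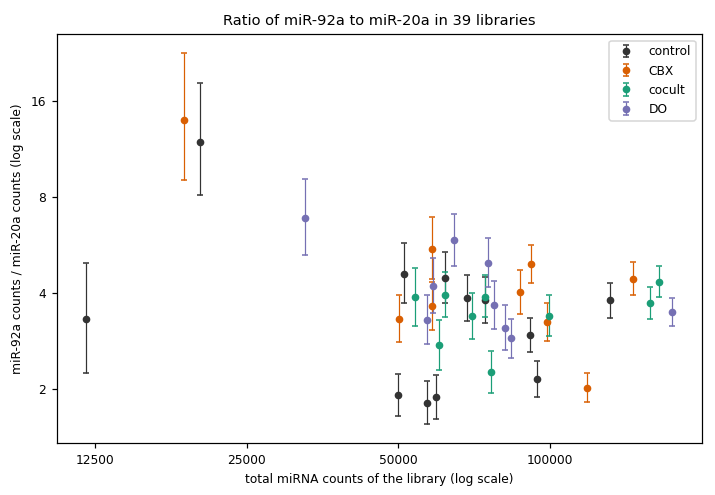
Ratio of miR-92a to miR-20a counts in each of the 39 libraries (log axis, bars for the exact 95% counting interval) against the library's total miRNA count (log axis), coloured by group. Libraries of 18796 and 20180 counts have ratios of 14.0 and 11.96, well above the median of 3.73, while the smallest library of 11985 counts is at 3.31.

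The same division appeared when members were compared over the 36 libraries at 1, 6 and 22 h on the log2(CPM + 1) scale. The 10 pairs among the 5 members of miR-17-92 other than miR-92a had Pearson correlations of 0.45 to 0.93 (median 0.68). Pairs of known miRNAs had a median of 0.06 and a 95th percentile of 0.61. The Spearman correlations of the 10 pairs were 0.31 to 0.77 (median 0.55). The 0.93 is miR-18a with miR-19a, both at 0 counts in replicate 2 of CBX at 22 h. For this pair the Spearman correlation was 0.53, and the Pearson correlation without the 3 libraries named above was 0.45. All 5 of these members had negative Pearson correlations with miR-92a, from -0.64 to -0.52. After removal of the condition means the ranges were 0.38 to 0.91 and -0.68 to -0.48. Without the 3 libraries named above they were 0.22 to 0.77 and -0.43 to -0.17, so the signs held while the sizes shrank. From the other cluster, miR-93 went with the 5 at 0.42 to 0.52 and miR-25 at -0.25 to 0.12, and without the 3 libraries miR-93 was at -0.08 to 0.23 and miR-25 at 0.01 to 0.32. The correlation between miR-93 and miR-25 was 0.38, and 0.62 without the 3 libraries. These values describe pairs measured in the same libraries as the ratio above, which share depth and scaling. With the log2 total, the Pearson correlation was 0.68 for miR-19b, 0.65 for miR-19a, 0.59 for miR-18a, 0.485 for miR-20a and 0.28 for miR-17-5p. It was -0.46 for miR-92a. The Spearman correlations were -0.06 to 0.49 for the 5 and -0.26 for miR-92a. The part of depth in the division was not tested.

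The members also differed in how closely replicates resembled each other. The SD between replicates of a condition over the 36 libraries at 1, 6 and 22 h, on the same log2 scale, was 0.18 for miR-25, the fifth smallest of 600 miRNAs tested and rank 3 of the 145 known ones. It was 0.28 for miR-93 (rank 41 of 600), 0.33 for miR-92a (82) and 0.38 for miR-20a (118), against a median of 0.61. Among the 60 miRNAs at least as abundant as miR-20a, miR-25 ranked 5, miR-93 24, miR-92a 30 and miR-20a 42, with a median SD of 0.33. With the 0 h libraries included, where 1 library of miR-25 stood apart, the SDs were 0.26 for miR-25, 0.32 for miR-93, 0.32 for miR-92a and 0.40 for miR-20a. Counting alone would give an SD of about 0.10 for miR-25 and 0.06 for miR-92a at their median counts of 203 and 683. For miR-17-5p, miR-18a and miR-19a the SDs were 0.76, 1.38 and 1.41 at median counts of 25, 15 and 17. The SDs of miR-18a and miR-19a include replicate 2 of CBX at 22 h, whose 0 counts of both enter this scale as 0. The other libraries of that condition were at 146 and 156 CPM for miR-18a and 191 and 180 for miR-19a.

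**Figure D5:**
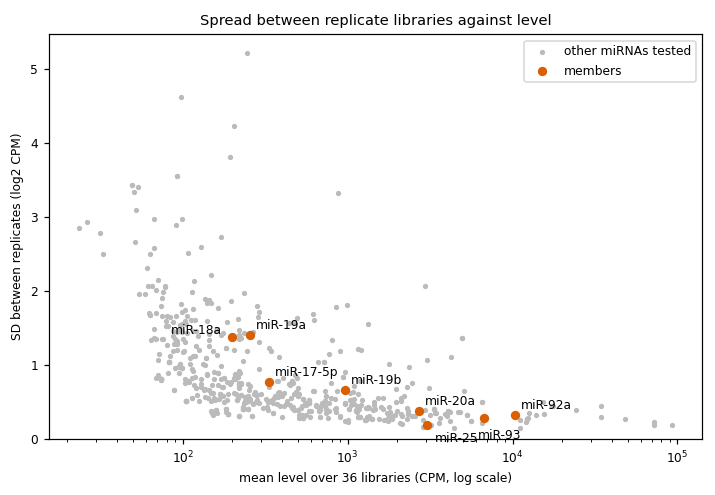
SD between replicate libraries of a condition on the log2(CPM + 1) scale against the mean level over 36 libraries (log axis) for the 600 miRNAs tested, with the 8 members in orange. The point of miR-25 lies near the lower edge at 0.18, while miR-18a and miR-19a lie at 1.38 and 1.41, each with 1 library at 0 counts.

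Among the 592 non-members tested, those whose levels followed the miR-106b-25 sum most closely over the 36 libraries were miR-125b (Pearson r = 0.68), miR-7 (0.65), miR-2284x (0.64), miR-191 (0.59) and miR-16b (0.55). For the miR-17-92 sum they were miR-507-3p (0.61), miR-320a (0.54), miR-99a-5p (0.53) and the predicted miRNAs numbered 308 and 680 (both 0.52). The lists share no miRNA.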

How the data were processed

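The authors removed adapters and duplicate reads with UMI-tools, aligned the forward reads to ARS-UCD1.2, and used miRPro to count mature miRNAs listed in miRBase and further predicted ones. The aligner and the rule for reads shared between copies are not given in the sources used here. The deposited values are raw counts per mature miRNA, not normalized. UMI-tools 1.1.2 and FastQC 0.11.9 are named in the submitters' processing notes. Both tables, known and predicted, were tested together. Predicted entries that share the same values were kept as separate entries, also in the shares over all miRNAs.

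Comparisons were made with edgeR 4.0.16 (quasi-likelihood F-test with the edgeR 3 behaviour) and limma 3.58.1 in R 4.3.3, with DESeq2 1.42.0 as an alternative. Each comparison between 2 conditions used its own 6 libraries. Averaged contrasts and interactions used the 36 libraries at 1, 6 and 22 h. Low counts were filtered with filterByExpr (minimum count 10, minimum total 15) and totals were scaled by TMM. The standard error is the log2 fold change divided by the square root of F. P-values measure the spread between libraries, which share ovary pools across groups. The block was the replicate number, taken to stand for the ovary pool (the batch term of the study's methods). The mean correlation of same-numbered libraries' deviations from their condition means was 0.096 to 0.427 over the 18 group comparisons, and -0.014 to 0.478 over the 15 time comparisons. The scripts were tested on simulated data. Levels are CPM with TMM factors over the 39 libraries, and 1 CPM was added before log2 for spreads and correlations. Intervals of count ratios were derived from exact binomial (Clopper-Pearson) intervals.

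The members, the relatives, the tissue lists and the rule for named miRNAs (all 9 members in each averaged contrast, and those with an unadjusted p-value under 0.05 in single comparisons) were chosen with earlier results of these data known. Cluster sums were not tested. Alternatives were the absence of the block, other size factors, library sizes from deduplicated reads, DESeq2, the robust option, no filter, known miRNAs only, a single fit of the 39 libraries, calls without a fold threshold, and leaving out each replicate. Leaving out 3 libraries was added after the data were seen. RT-qPCR data were not analysed here.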

Additional observations from a re-analysis of the deposited data

How the results depend on the processing

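Of the counts of members called, 1 moved under the alternatives: with library sizes from deduplicated reads, 2 members were called in the 15 comparisons between times, where the setting itself shifts all miRNAs. Without the replicate block the counts were 0 in all 5 families of tests, and the number of tests called over all miRNAs went from 21 to 4 in the comparisons between groups and from 11 to 14 between times. Leaving out replicate 1, 2 or 3 gave 0 called members in each family (lowest 0, highest 0), with between 30 and 103 calls over all miRNAs between times and between 36 and 84 between groups. Without a low-count filter, 88 tests were called between groups and 82 between times over all miRNAs, and 0 of members. The 72 member estimates of the averaged contrasts changed sign in 0 cases without the block, 2 with RLE factors, 3 with DESeq2, 3 without a filter, 9 with known miRNAs only, 9 with deduplicated library sizes and 7 to 19 when a replicate was left out. The last moved miR-18a in control against DO by 0.611 on the log2 scale without replicate 3, and miR-17-5p from 1 to 6 h by 0.551 without replicate 1. Without the 3 libraries of highest miR-92a to miR-20a ratio, 9 of the 72 changed sign. Moves of more than 1 standard error numbered 0 in that setting, 14, 7 and 23 without replicates 1, 2 and 3, 15 with deduplicated library sizes, 2 with known miRNAs only and 0 in the other settings. Low depth limits what can be said of miR-18a, miR-19a and miR-17-5p, and bars any statement on miR-106b.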

Other observations

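The effects of one contrast were also set side by side between groups or times for each member, in 286 pairs of effects. In 7 pairs all 3 replicate pairs moved up in one and down in the other, and edgeR's test of the difference in the 36-library fit called 0 of them. The lowest of these adjusted p-values was 0.689, for miR-19a from 6 to 22 h in CBX against control (difference -1.26 on the log2 scale, standard error 0.71). The ratio of miR-93 to miR-25 counts had a median of 2.16 over the 39 libraries (range 1.17 to 3.19). In the 3 control libraries at 0 h it was 1.44 to 1.57, and in control at 1 h 1.96 to 2.35, at 6 h 1.33 to 2.06 and at 22 h 2.33 to 2.54. The ranges at 0 h and 22 h do not overlap. This ratio was looked at after its values were known and was not tested.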
